A study of Mus musculus with 34 samples.

Results

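The genes described here are 10 markers of adventitial and portal fibroblasts, the fibroblasts that ensheathe larger blood vessels and, in the liver, the portal tracts. They are Pi16, Clec3b, Sfrp2, Mgp, Cd34, Gsn, Dpt, Dcn, Lum and Ogn, taken by gene symbol from 2 tables of mouse liver RNA counts that list 14876 genes between them. They were selected on these same data. Several of them are labelled in the study's plot of S100a8fl/flCx3cr1Cre against S100a8fl/fl livers on HFD, so their levels in those livers, and every comparison that uses those livers, are given as a description with no test. All 10 were measured in the S100a8 experiment and 7 in the Bcl2AdTG experiment, in which Pi16, Clec3b and Sfrp2 were not analysed here.

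The study asked how dying adipocytes and S100A8-producing macrophages bear on fat storage in the liver during obesity. All 34 animals were male mice placed at 8 weeks of age on a high-fat diet (HFD, 60% of energy from fat) or on chow (10% of energy from fat), and each gave 1 polyadenylated RNA library of whole liver. The Bcl2AdTG experiment held 5 Bcl2AdTG and 5 WT mice on HFD and 3 Bcl2AdTG and 3 WT mice on chow. Bcl2AdTG mice carry a Cre-inducible Bcl2 transgene switched on by Cre under the adiponectin (Adipoq) promoter, which is active in adipocytes and not in the cells of the liver. The S100a8 experiment held 4 S100a8fl/flCx3cr1Cre and 5 S100a8fl/fl mice on HFD and 5 S100a8fl/flCx3cr1Cre and 4 S100a8fl/fl mice on chow. All of its mice carry the floxed S100a8 allele, and Cre under the Cx3cr1 promoter, active in monocytes and macrophages, deletes it only in S100a8fl/flCx3cr1Cre mice. The controls were littermates. The diet lasted 3 months in the Bcl2AdTG experiment, and either 3 or 4 months in the S100a8 experiment, on which the sources differ.

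The libraries held 19639839 to 52395073 counts in the Bcl2AdTG experiment and 18628257 to 25462106 in the S100a8 experiment. Levels are given in CPM, each count being divided by its TMM-scaled library total. S100a8 itself was not analysed here, so the deletion was not checked in these libraries. Bcl2, whose transgene is meant for adipocytes, was at 8.98 to 14.8 CPM in Bcl2AdTG livers on HFD, against 2.72 to 2.94 CPM in 4 WT livers and 21.3 CPM in the library labelled HFD WT 1. On chow the order was the other way, at 4.17 to 8.44 CPM in Bcl2AdTG and 7.75 to 11.3 CPM in WT livers, so Bcl2 in the liver did not check the labels. Chow WT 2 stood apart from the other 2 chow WT livers. Hepatocyte markers (9 of 9 measured) summed to 86660 to 153500 CPM over all 34 livers.

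Adventitial and portal fibroblasts build and maintain the collagen sheath around vessels and bile ducts, and in the injured liver portal fibroblasts are a source of scar-forming cells beside the hepatic stellate cells of the sinusoids. In many mouse tissues Pi16 and Dpt mark an adventitial fibroblast state that is regarded as a reservoir for more specialized fibroblasts. Dcn is less restricted, since hepatic stellate cells also make it. Smooth muscle also makes Gsn and Mgp, and vascular endothelium Cd34. In bulk RNA, more cells of a type and more RNA per cell cannot be told apart.

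RefSeq promoter sequences (GRCm38.p6) were matched by symbol for 6 of the 10 genes, Pi16, Sfrp2, Cd34, Gsn, Dpt and Ogn. The last 100 bases before the RefSeq gene start are shown for Sfrp2, Cd34 and Ogn, which were all higher in S100a8fl/flCx3cr1Cre than in S100a8fl/fl livers on HFD and lie on 3 different chromosomes. Sequences run 5′ to 3′ on the plus strand, the strand of all 3 genes, and capitals mark GGAATG, the core that TEAD factors bind.
Sfrp2, chr3:83766221-83766320: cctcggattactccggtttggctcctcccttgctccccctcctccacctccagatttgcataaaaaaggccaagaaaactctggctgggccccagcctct
Cd34, chr1:194938719-194938818: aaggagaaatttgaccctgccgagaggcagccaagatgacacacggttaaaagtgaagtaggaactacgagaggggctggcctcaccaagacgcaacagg
Ogn, chr13:49607915-49608014: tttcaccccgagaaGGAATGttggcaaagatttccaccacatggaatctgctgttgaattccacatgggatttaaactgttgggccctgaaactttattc
GGAATG lay 86 bases before the start of Ogn and in no other member promoter searched, and 12.6% of 32851 mouse promoters hold it. The search covered 250 bases before the start on both strands, in 8 promoters of the 6 genes, of which that of Pi16 and 2 of the 3 of Gsn start inside the annotated gene. TATAAA was found for Ogn (12.4% of all promoters), CCAAT for Gsn and Pi16 (33.85%), and CACCTG, an E-box, for Dpt and Gsn (17.2%). The AP-1 motif TGACTCA or TGAGTCA (4.46% of all promoters) and the CArG box of smooth muscle genes (1.47%) were found in none of the 8. These letters are a description of the sequence and not a factor's site.

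In the S100a8 experiment, 8 of the 10 genes were called higher in S100a8fl/flCx3cr1Cre than in S100a8fl/fl livers on HFD (Pi16, Clec3b, Sfrp2, Mgp, Cd34, Ogn, Gsn and Dpt), where 0.883% of all 13817 genes were called in either direction by edgeR at an adjusted p under 0.05. For these 8 every S100a8fl/flCx3cr1Cre liver lay above every S100a8fl/fl liver, which held for 2.736% of all genes. The genes did not move by one factor. Sfrp2 was 10.8-fold, Pi16 10.4-fold, Mgp 9.46-fold, Clec3b 7.42-fold, Ogn 5.31-fold, Cd34 3.55-fold, Gsn 1.95-fold and Dpt 1.88-fold higher, while Dcn and Lum were at 1.03-fold and 1.34-fold and overlapped. This contrast chose the genes, so nothing is read from these counts and folds. Smooth muscle markers (6 of 9 called higher) and adipocyte markers (3 of 7) were higher in the same livers, and their part was not tested.

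Pi16 (ENSMUSG00000024011, chr17:29317680-29330593, plus strand), peptidase inhibitor 16, measured 12.9, 12.6, 13.1 and 15.9 CPM in S100a8fl/flCx3cr1Cre livers on HFD, against 1.07, 0.277, 1.90, 2.01 and 1.25 CPM in S100a8fl/fl livers on HFD. The 4 deleted livers lay close together and far above all 5 controls, and the log2 fold change was 3.37 ± 0.36 (SE). On chow Pi16 lay between 0.921 and 2.28 CPM in S100a8fl/flCx3cr1Cre livers and between 0.293 and 1.13 CPM in S100a8fl/fl livers, so the HFD controls overlapped the chow livers of both genotypes.

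Clec3b (ENSMUSG00000025784, chr9:123150946-123157432, plus strand) encodes tetranectin, a secreted plasminogen-binding protein. It measured 2.42, 3.97, 4.78 and 4.82 CPM in S100a8fl/flCx3cr1Cre livers on HFD, against 0.0827, 0.185, 0.775, 0.740 and 0.877 CPM in S100a8fl/fl livers, which rest on 2 to 21 counts. The groups did not overlap, and the log2 fold change was 2.89 ± 0.50 (SE). Sfrp2 (ENSMUSG00000027996, chr3:83766321-83774316, plus strand), a secreted Wnt antagonist, measured 6.63, 3.81, 5.77 and 5.98 CPM in S100a8fl/flCx3cr1Cre livers, against 0, 0.185, 0.904, 0.493 and 0.961 CPM in S100a8fl/fl livers, with a log2 fold change of 3.43 ± 0.68 (SE). It had the largest SE of the 10, and S100a8fl/fl livers held 0 to 23 Sfrp2 counts.

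Mgp (ENSMUSG00000030218, chr6:136872435-136875823, minus strand) encodes matrix Gla protein, an inhibitor of vessel calcification. It measured 85.8, 79.0, 104.3 and 91.3 CPM in S100a8fl/flCx3cr1Cre livers on HFD, against 4.05, 3.46, 10.8, 12.5 and 16.7 CPM in S100a8fl/fl livers on HFD. That is a log2 fold change of 3.24 ± 0.50 (SE), and the S100a8fl/fl livers differed among themselves far more than the deleted livers did (coefficient of variation 59.7%, against 11.9% in S100a8fl/flCx3cr1Cre livers). Cd34 (ENSMUSG00000016494, chr1:194938819-194961279, plus strand), a sialomucin also carried by endothelial and progenitor cells, measured 6.55, 10.7, 7.40 and 7.30 CPM in S100a8fl/flCx3cr1Cre livers, against 2.27, 2.45, 1.46, 2.88 and 2.17 CPM in S100a8fl/fl livers. The log2 fold change of Cd34 was 1.83 ± 0.29 (SE), and 1 deleted liver, number 3, stood above the rest.

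Ogn (ENSMUSG00000021390, chr13:49608046-49624501, plus strand) encodes osteoglycin, a small leucine-rich proteoglycan that binds collagen. It measured 10.5, 10.1, 9.64 and 10.4 CPM in S100a8fl/flCx3cr1Cre livers on HFD, against 1.41, 1.85, 1.76, 1.48 and 3.05 CPM in S100a8fl/fl livers, a log2 fold change of 2.41 ± 0.35 (SE). The 4 deleted livers agreed to a coefficient of variation of 3.73%, the smallest of the 10 genes in that group. Gsn (ENSMUSG00000026879, chr2:35256380-35307892, plus strand) encodes gelsolin, which severs actin filaments, and Dpt (ENSMUSG00000026574, chr1:164796644-164824266, plus strand) dermatopontin, which binds decorin and collagen. Gsn measured 79.4, 87.5, 80.02 and 78.97 CPM in S100a8fl/flCx3cr1Cre livers, against 42.7, 43.3, 36.6, 44.6 and 41.6 CPM in S100a8fl/fl livers, a log2 fold change of 0.96 ± 0.15 (SE). Dpt measured 18.98, 19.9, 18.98 and 24.7 CPM in S100a8fl/flCx3cr1Cre livers, against 13.3, 8.50, 11.4, 12.3 and 9.40 CPM in S100a8fl/fl livers, a log2 fold change of 0.91 ± 0.16 (SE). Both were higher without overlap, by far smaller factors than Pi16 or Mgp.

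Dcn (ENSMUSG00000019929, chr10:97479609-97518143) and Lum (ENSMUSG00000036446, chr10:97565128-97572703) encode decorin and lumican, small leucine-rich proteoglycans that space collagen fibrils, and lie 46984 bases apart on the plus strand. Dcn measured 149.2, 155.3, 168.1 and 149.5 CPM in S100a8fl/flCx3cr1Cre livers on HFD, against 199.0, 145.7, 122.3, 137.2 and 153.8 CPM in S100a8fl/fl livers. Its log2 fold change was 0.04 ± 0.26 (SE), with an interval of 2 SE from -0.49 to 0.56. Lum measured 21.0, 18.1, 26.9 and 21.6 CPM in S100a8fl/flCx3cr1Cre livers, against 25.65, 9.97, 14.2, 16.4 and 15.2 CPM in S100a8fl/fl livers, a log2 fold change of 0.42 ± 0.22 (SE). S100a8fl/fl liver 1, the highest of its group for both proteoglycans, lay inside or above the range of the deleted livers, and without it Lum was at 0.65.

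**Figure D1:**
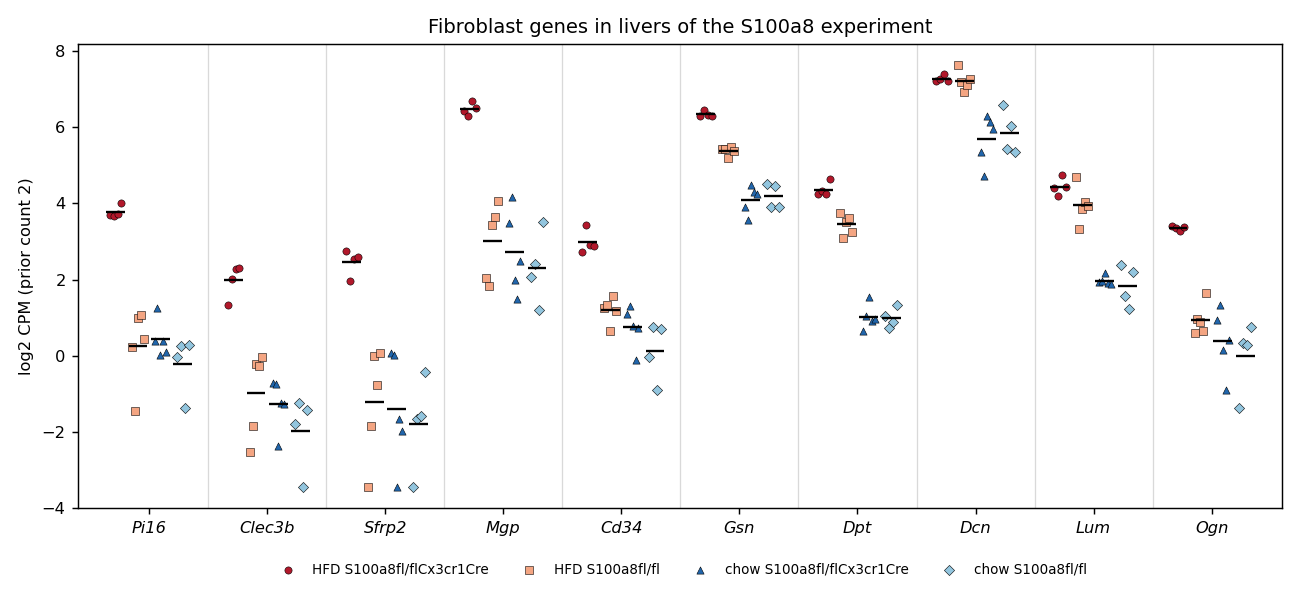
Level of each of the 10 genes in every liver of the S100a8 experiment, as log2 CPM with a prior count of 2 (vertical axis), by gene and group (horizontal axis), with a bar at each group mean. For Pi16, Clec3b, Sfrp2, Mgp, Cd34, Ogn, Gsn and Dpt the 4 HFD S100a8fl/flCx3cr1Cre livers stand above all others, while Dcn and Lum separate only by diet.

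By diet, all 10 genes were called higher on HFD than on chow in S100a8fl/flCx3cr1Cre livers (28.9% of all genes were called), and every HFD liver lay above every chow liver for all 10 (14.16% of all genes). In S100a8fl/fl livers 5 of the 10 were called higher on HFD (Cd34, Gsn, Dpt, Dcn and Lum, where 27.5% of all genes were called), and Gsn, Dpt, Dcn and Lum did not overlap (11.24% of all genes). Both diet comparisons use the HFD livers that chose the genes, so they too are a description. The median log2 fold change over the 10 was 3.09 in S100a8fl/flCx3cr1Cre livers (all genes: -0.01) and 1.09 in S100a8fl/fl livers (all genes: -0.01).

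In S100a8fl/flCx3cr1Cre livers the log2 fold changes by diet were highest for Sfrp2 (3.53 ± 0.69, SE), Clec3b (3.44 ± 0.52), Mgp (3.43 ± 0.50), Dpt (3.38 ± 0.18) and Pi16 (3.34 ± 0.37), which lay within each other's error, with Ogn at 2.84 ± 0.36, Lum at 2.51 ± 0.24 and Dcn lowest at 1.48 ± 0.27. In S100a8fl/fl livers the order was another, with Dpt and Lum first. Dpt was at 8.50 to 13.3 CPM in S100a8fl/fl livers on HFD, against 1.55 to 2.44 CPM on chow, a log2 fold change of 2.50 ± 0.19 (SE). Lum was at 9.97 to 25.65 CPM in S100a8fl/fl livers on HFD, against 2.25 to 5.10 CPM on chow, a log2 fold change of 2.14 ± 0.25 (SE). The log2 fold changes of Pi16, Mgp, Sfrp2 and Ogn in these controls were 0.62 ± 0.42, 0.73 ± 0.52, 0.83 ± 0.86 and 0.87 ± 0.39 (SE), and their HFD and chow livers overlapped.

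The diet by genotype term, the diet's log2 fold change in S100a8fl/flCx3cr1Cre minus that in S100a8fl/fl livers, was above 0 for all 10 genes, with a median of 1.60 (all genes: 0.01). It was 2.72 ± 0.56 for Pi16, 2.71 ± 0.71 for Mgp, 2.70 ± 1.15 for Sfrp2, 2.05 ± 0.89 for Clec3b and 1.98 ± 0.53 for Ogn (SE), and 0.17 ± 0.38 for Dcn and 0.37 ± 0.33 for Lum. This term uses the HFD livers that chose the genes, so its calls are a description. Of the 10, edgeR called 0 (0.13% of all genes were called by edgeR), DESeq2 3 and limma-voom 0. Cd34, Gsn and Dpt lay between, at 1.22 ± 0.44, 1.06 ± 0.22 and 0.88 ± 0.26.

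**Figure D2:**
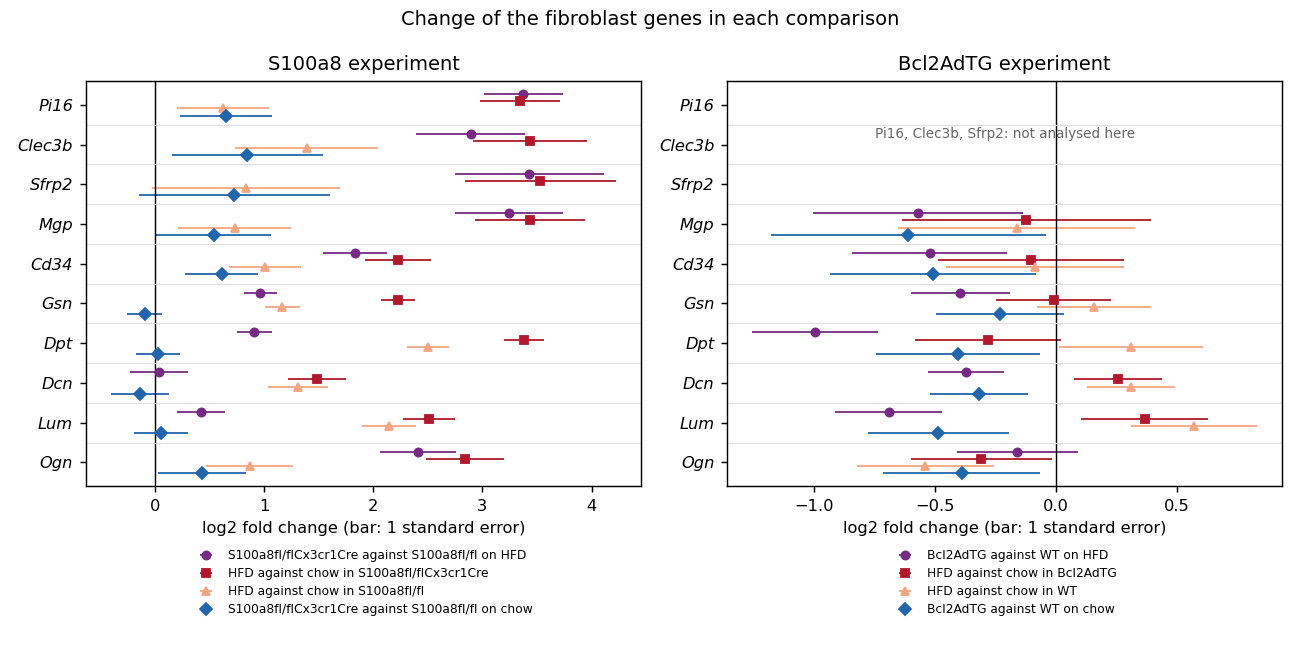
Log2 fold change (horizontal axis) of each gene in 4 comparisons of each experiment, with bars of 1 SE, the S100a8 experiment on the left and the Bcl2AdTG experiment on the right. Pi16, Clec3b, Sfrp2 and Mgp lie at 2.89 or above in both comparisons of the HFD-fed S100a8fl/flCx3cr1Cre livers and at 1.39 or below in the other 2, and in the Bcl2AdTG experiment all 7 genes lie left of 0 for Bcl2AdTG against WT on either diet.

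The chow livers were not in the comparison whose plot labels several of the genes, and there the genotypes were tested. The genes were still chosen with earlier results of these data known. Clec3b and Sfrp2 would not have passed the filter on low counts in the chow livers alone, and entered through the HFD livers where they are high. None of the 10 genes was called between S100a8fl/flCx3cr1Cre and S100a8fl/fl livers (0% of all genes were called by edgeR, 775 genes had an unadjusted p under 0.05), 0 of the 10 had an unadjusted p under 0.05, and DESeq2 and limma-voom also called 0. The point estimates of 8 of the 10 were above 0, with a median of 0.485 (all genes: -0.00237), and those of 6 of the 8 that passed on chow alone, with a median of 0.241. Leaving out single chow livers gave 6 to 10 of the 10 above 0 and medians down to 0.0979 (without S100a8fl/flCx3cr1Cre 2), and limma-voom a median of 0.195, so no direction is read from the set. Pi16 measured 1.21, 2.28, 0.921, 1.22 and 0.978 CPM in S100a8fl/flCx3cr1Cre livers on chow, against 0.883, 1.11, 0.293 and 1.13 CPM in S100a8fl/fl livers, a log2 fold change of 0.65 ± 0.43 (SE; edgeR adjusted p = 0.991). Its interval of 2 SE ran from -0.20 to 1.501, and the groups overlapped. Cd34 had the smallest p-value of the 10, with a log2 fold change of 0.61 ± 0.34 (SE; edgeR adjusted p = 0.948). Mgp was at 0.54 ± 0.52 (log2, SE; edgeR adjusted p = 1), with an interval from -0.51 to 1.59.

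Chow livers of the S100a8 experiment differed among themselves in an ordered way. Mgp measured 11.2, 17.8, 3.89, 2.73 and 5.54 CPM in chow S100a8fl/flCx3cr1Cre livers 1 to 5 and 4.12, 5.21, 2.20 and 11.4 CPM in chow S100a8fl/fl livers 1, 2, 4 and 5. Dcn ran the other way in the same livers, at 40.5, 26.2, 79.2, 71.0 and 61.6 CPM in S100a8fl/flCx3cr1Cre and 96.2, 43.0, 65.1 and 40.5 CPM in S100a8fl/fl livers. S100a8fl/flCx3cr1Cre liver 2 thus had the highest Mgp and the lowest Dcn of all 9 chow livers.

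Ranked as deviations from their group means over the 18 livers, Gsn and Dcn rose and fell together (Spearman's rho 0.89), and both ran against Mgp (-0.75 and -0.74), Sfrp2 (-0.70 and -0.78), Ogn (-0.66 and -0.69), Clec3b (-0.60 and -0.62), Pi16 (-0.57 and -0.54) and Cd34 (-0.46 and -0.56). Among the others Clec3b and Mgp had a rho of 0.82, Sfrp2 and Mgp 0.81, Pi16 and Clec3b 0.75 and Sfrp2 and Ogn 0.71. Other pairs of these 6 ranged from 0.69 (Pi16 and Mgp, Clec3b and Sfrp2) and 0.59 (Mgp and Ogn) down to 0.10 (Pi16 and Ogn). Sfrp2 and Cd34 had a rho of 0.18, Pi16 and Cd34 0.30 and Clec3b and Cd34 0.33, so the 6 were not equally related. Dpt and Lum made a pair of their own (0.60), and the neighbours Dcn and Lum had a rho of 0.19. In the 9 chow livers alone Gsn and Dcn had a rho of 0.93, and Dcn and Ogn -0.97. These correlations describe libraries whose genes share depth, dissection and RNA, and are not tests.

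**Figure D3:**
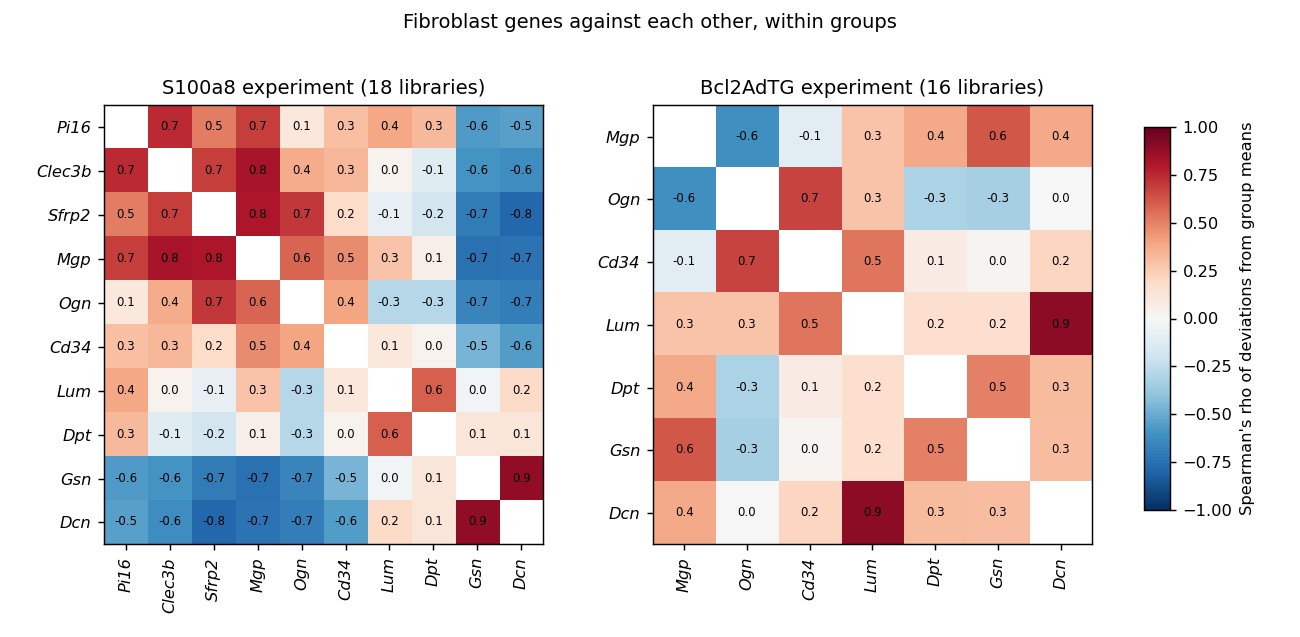
Spearman's rho between each pair of genes, computed on deviations from group means over 18 livers of the S100a8 experiment (left) and 16 of the Bcl2AdTG experiment (right), red for positive and blue for negative. Gsn and Dcn stand against Pi16, Clec3b, Sfrp2, Mgp, Ogn and Cd34 in the S100a8 experiment, and Dcn pairs with Lum (0.89) in the Bcl2AdTG experiment.

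In the Bcl2AdTG experiment the 7 measured genes were tested in other mice. The genes were still chosen with earlier results of these data known, so these tests are not independent of that choice. The same holds for the gene lists below. On HFD, 1 of the 7 genes was called between Bcl2AdTG and WT livers, Dpt, which was lower in Bcl2AdTG (6.71% of all 14436 genes were called by edgeR). All 7 log2 fold changes were below 0, with a median of -0.52 (all genes: 0.01), though Ogn was at 0.019 without Bcl2AdTG 6. Dpt, Lum and Dcn had every Bcl2AdTG liver below every WT liver, which held for 4.53% of all genes. By other tools DESeq2 called 2 of the 7 and limma-voom 3, with no share of all genes given for these tools. By edgeR 3 of the 7 had an unadjusted p under 0.05 (3131 of all 14436 genes).

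Dpt measured 2.74, 2.52, 4.47, 2.41 and 4.78 CPM in Bcl2AdTG livers on HFD, against 5.68, 5.16, 7.60, 6.48 and 8.82 CPM in WT livers on HFD. Mean and SD were 3.38 ± 1.15 CPM over the 5 Bcl2AdTG and 6.75 ± 1.48 CPM over the 5 WT livers, and the log2 fold change was -0.996 ± 0.26 (SE; edgeR adjusted p = 0.0293). The call was lost on leaving out any of 6 of the 10 livers (Bcl2AdTG 1, 2 or 5, WT 3, 4 or 5), with adjusted p from 0.0572 to 0.0851 and log2 fold changes from -0.88 to -1.02 among these 6. Without the library labelled HFD WT 1, Dpt was at -1.07 (adjusted p = 0.0318). In the same livers the sum of the 4 measured adipocyte genes was 23.72 to 120.6 CPM in Bcl2AdTG and 121.7 to 192.0 CPM in WT livers. Of these 4, Cidec and Plin4 were called lower, and 1 gene lay above 0. Cidec is also made by fat-laden hepatocytes, and Adipoq and Plin1 were not analysed in this experiment. The part of the adipocyte genes in the lower Dpt was not tested.

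Lum measured 8.78, 7.56, 7.86, 9.07 and 3.96 CPM in Bcl2AdTG livers on HFD, against 12.1, 9.25, 11.1, 11.8 and 16.02 CPM in WT livers. The gap between the groups was narrow, from 9.07 to 9.25 CPM. Its log2 fold change was -0.69 ± 0.22 (SE; edgeR adjusted p = 0.0724), and DESeq2, limma-voom and the fit without WT 2 put it past the threshold (adjusted p = 0.033, 0.0125 and 0.0472). Dcn measured 130.4, 121.6, 140.2, 139.7 and 116.6 CPM in Bcl2AdTG livers, against 163.1, 149.3, 153.4, 166.6 and 206.7 CPM in WT livers, a log2 fold change of -0.37 ± 0.16 (SE; edgeR adjusted p = 0.174).

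The remaining 4 genes overlapped between Bcl2AdTG and WT livers on HFD and were not called. Gsn lay at 16.1 to 30.3 CPM in Bcl2AdTG and 23.9 to 42.8 CPM in WT livers (log2 fold change -0.40 ± 0.20 SE, edgeR adjusted p = 0.275). Mgp lay at 0.720 to 1.29 CPM in Bcl2AdTG and 0.376 to 2.27 CPM in WT livers (-0.57 ± 0.43, adjusted p = 0.474). Cd34 lay at 0.368 to 1.70 CPM in Bcl2AdTG and 1.10 to 1.92 CPM in WT livers (-0.52 ± 0.32, adjusted p = 0.366). Ogn lay at 0.782 to 2.44 CPM in Bcl2AdTG and 1.73 to 2.56 CPM in WT livers (-0.16 ± 0.25, adjusted p = 0.748). The intervals of 2 SE reached from -1.44 to 0.29 for Mgp and from -0.66 to 0.34 for Ogn.

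**Figure D4:**
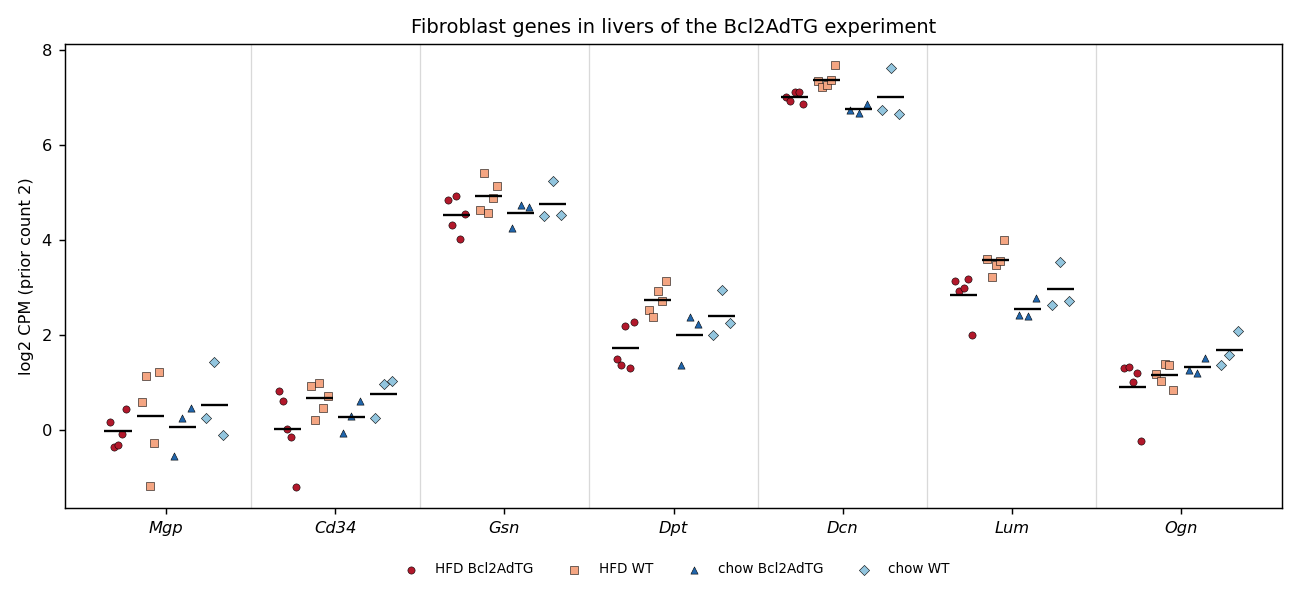
Level of the 7 measured genes in every liver of the Bcl2AdTG experiment, as log2 CPM with a prior count of 2 (vertical axis), by gene and group (horizontal axis), with a bar at each group mean. Dpt, Dcn and Lum separate Bcl2AdTG from WT livers on HFD, and chow WT 2 is the highest chow liver for Mgp, Gsn, Dpt, Dcn and Lum.

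By diet none of the 7 was called by edgeR in Bcl2AdTG livers (2.58% of all genes were called), where 0 had an unadjusted p under 0.05, DESeq2 called 0 and limma-voom 2. None was called by edgeR in WT livers either (15.4% of all genes were called). There 1 gene, Lum, had an unadjusted p under 0.05 (4398 of all 14436 genes), DESeq2 called 0 and limma-voom 2. In Bcl2AdTG livers Dcn was at 116.6 to 140.2 CPM on HFD, against 106.9, 102.2 and 116.4 CPM on chow, a log2 fold change of 0.26 ± 0.18 (SE; adjusted p = 0.555). The diets did not overlap, which held for 7.585% of all genes. In WT livers Dcn was at 149.3 to 206.7 CPM on HFD, against 107.3, 197.2 and 101.7 CPM on chow, a log2 fold change of 0.31 ± 0.18 (SE; adjusted p = 0.267). Lum was at 9.25 to 16.02 CPM in WT livers on HFD, against 6.17, 11.6 and 6.54 CPM on chow, a log2 fold change of 0.57 ± 0.26 (SE; edgeR adjusted p = 0.148). Chow WT 2 held the high chow value for both. Without it Lum was at 0.92 (adjusted p = 0.0364) and Dcn at 0.68 (adjusted p = 0.00461), and both were called higher on HFD.

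On chow 0 of the 7 genes was called between Bcl2AdTG and WT livers by edgeR, DESeq2 or limma-voom, and 0 had an unadjusted p under 0.05 (0.152% of all genes were called). All 7 log2 fold changes were below 0, from -0.61 to -0.23, but without chow WT 2 Mgp, Gsn and Dcn were above 0 and the median was -0.07, against -0.41 with it. Dpt was at -0.41 ± 0.34 (SE; adjusted p = 0.761). The diet by genotype term was called for 0 of the 7 by all 3 tools, with 0 at an unadjusted p under 0.05 (0.485% of all genes were called). For Dpt it was -0.59 ± 0.42 (SE; adjusted p = 0.514), so the lower Dpt on HFD was not shown to differ from the value on chow.

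Within groups of the Bcl2AdTG experiment, Dcn and Lum moved together (rho 0.89 over 16 livers), Cd34 with Ogn (0.68) and Mgp with Gsn (0.62). Dcn and Mgp, opposed in the S100a8 experiment, had a rho of 0.38 here, and Gsn and Dcn 0.31.

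Per kb of exon, Dcn was the most abundant of the measured genes in every group but 1. In HFD S100a8fl/flCx3cr1Cre livers Mgp led with 75.9 CPM per kb, ahead of Dcn (26.6), Gsn (25.8), Dpt (11.97) and Lum (8.94). Clec3b (4.03), Ogn (3.96), Sfrp2 (2.58), Pi16 (2.14) and Cd34 (1.10) followed, and of these neighbours Dcn and Gsn, Clec3b and Ogn, and Sfrp2 and Pi16 lay within each other's spread. In HFD S100a8fl/fl livers the order was Dcn (26.0 CPM per kb), Gsn (13.2), Mgp (8.00), Lum (6.66) and Dpt (6.36), of which the last 3 lay within each other's spread. In HFD Bcl2AdTG livers it was Dcn (22.2 CPM per kb), Gsn (7.51), Lum (3.04), Dpt (1.96) and Mgp (0.79). In HFD WT livers it was Dcn (28.7 CPM per kb), Gsn (9.91), Lum (4.93), Dpt (3.91) and Mgp (1.18). Mgp, first in the HFD S100a8fl/flCx3cr1Cre livers, thus came after 4 others in these 2 groups. The experiments were normalized separately and this last contrast was not tested.

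Of 40 other adventitial and portal fibroblast genes, 32 were measured in the Bcl2AdTG experiment. Of these, 7 were called lower in Bcl2AdTG than in WT livers on HFD and 0 higher (6.71% of all genes were called), with a median log2 fold change of -0.46 (all genes: 0.01). Of the 32, 5 were above 0. Fbln2, a fibulin of elastic and basement membrane matrix, measured 1.86, 2.62, 2.26, 2.13 and 2.71 CPM in Bcl2AdTG livers on HFD, against 7.14, 6.19, 4.93, 5.80 and 6.98 CPM in WT livers, a log2 fold change of -1.42 ± 0.18 (SE; edgeR adjusted p = 0.000778). On chow Fbln2 was at 2.06 to 2.64 CPM in Bcl2AdTG and 1.32 to 2.54 CPM in WT livers, so only the HFD WT livers stood above the rest of that experiment. Pcolce, which speeds procollagen processing, was at -0.61 ± 0.12 (adjusted p = 0.0071), and the collagens Col14a1 and Col15a1 were at -0.83 ± 0.17 (adjusted p = 0.0094) and -1.39 ± 0.30 (adjusted p = 0.0118). Tnxb, Smoc2 and Svep1, named after their values were seen, were the other 3, at -0.78, -0.98 and -1.24 (log2). The calls of Svep1 and Smoc2 rested on single livers. Svep1 lost its call on leaving out any of 7 of the 10 HFD livers (Bcl2AdTG 3, 5 or 6, WT 1, 3, 4 or 5, edgeR adjusted p from 0.0589 to 0.101), with the replicate block (0.195) and with only the 2 HFD groups fitted (0.0828). Smoc2 lost its call without Bcl2AdTG 5 or 6 or WT 4 or 5 (adjusted p from 0.0748 to 0.101) and with the block (0.233).

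In S100a8fl/flCx3cr1Cre livers on HFD, 6 of 33 genes of that list were called higher than in S100a8fl/fl livers and 0 lower (0.883% of all genes were called), with a median of 0.61 (all genes: 0.00104). DESeq2 called 12 of the 33 and limma-voom 15, with no share of all genes given for these tools. The 6 were Mfap4, Aebp1, Fbln1, Svep1, Igfbp6 and Fbln2, at log2 fold changes from 1.11 (Fbln2) to 1.82 (Mfap4), named after their values were seen. Of the 33, 26 were above 0. Col14a1, Entpd2 and Col15a1 were among those below 0, at -0.21, -0.18 and -0.13. Fbln2 measured 9.39, 10.7, 10.6 and 10.5 CPM in S100a8fl/flCx3cr1Cre livers, against 4.51, 4.62, 4.52, 6.82 and 3.38 CPM in S100a8fl/fl livers. Fbln2 was thus called in both genotype comparisons on HFD, lower in Bcl2AdTG and higher in S100a8fl/flCx3cr1Cre livers. Its list was chosen with earlier results of these data known, so this is a description. By diet 27 of the 33 were called higher and 1 lower on HFD in S100a8fl/flCx3cr1Cre livers (28.9% of all genes were called). In S100a8fl/fl livers 22 were called higher and 2 lower (27.5% of all genes were called). In Bcl2AdTG livers edgeR called 0 of 32 by diet (2.58% of all genes were called). By edgeR 5 had an unadjusted p under 0.05 (2242 of all 14436 genes), and DESeq2 called 1 and limma-voom 5. In WT livers edgeR called 4 higher and 1 lower of 32 on HFD, where it called 15.4% of all genes. DESeq2 called 10 of the 32 and limma-voom 11. By edgeR 16 had an unadjusted p under 0.05 (4398 of all 14436 genes), and the median was 0.53 (all genes: -0.02).

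Of 17 small leucine-rich proteoglycans, to which Dcn, Lum and Ogn belong, 10 were measured. Between Bcl2AdTG and WT livers on HFD edgeR called 0 of these 10 (6.71% of all genes were called). By edgeR 5 had an unadjusted p under 0.05 (3131 of all 14436 genes), and DESeq2 called 1 and limma-voom 2. All 10 were below 0 (median -0.38), among them Fmod at -0.92 (adjusted p = 0.13) and Bgn at -0.42 (adjusted p = 0.186). In S100a8fl/flCx3cr1Cre livers on HFD 2 of the 10 were called higher, Ogn and Ecm2 (1.44 ± 0.29 SE), where 0.883% of all genes were called. Bgn was at 0.41 and Fmod at 0.58. Of the secreted Wnt antagonists of the SFRP family (2 of 5 measured here, 4 of 5 in the S100a8 experiment), Frzb was called lower in Bcl2AdTG livers on HFD, at 2.71, 1.62, 1.90, 1.11 and 0.828 CPM, against 4.005, 3.93, 3.82, 3.37 and 4.75 CPM in WT livers (log2 fold change -1.25 ± 0.27 SE, adjusted p = 0.0114). Sfrp1, the other measured, was not called, at 0.03 by edgeR and -0.48 by limma-voom. In S100a8fl/flCx3cr1Cre livers Sfrp1 was called higher with Sfrp2, at 7.34, 4.89, 7.36 and 6.15 CPM, against 0.745, 0.554, 1.33, 2.59 and 0.543 CPM in S100a8fl/fl livers.

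Markers of other cells moved in the same livers. Smooth muscle genes (9 of 12 measured) summed to 245.6 to 273.8 CPM in S100a8fl/flCx3cr1Cre livers on HFD, against 86.29 to 123.0 CPM in S100a8fl/fl livers on HFD and 70.42 to 103.4 CPM over the chow livers. Of the 9, 6 were called higher in S100a8fl/flCx3cr1Cre than in S100a8fl/fl livers on HFD (median log2 fold change 2.39), where 0.883% of all genes were called. Acta2, smooth muscle actin, measured 107.0, 97.9, 120.3 and 104.1 CPM in S100a8fl/flCx3cr1Cre livers, against 7.69, 5.36, 12.7, 22.1 and 24.5 CPM in S100a8fl/fl livers. The order of the 5 S100a8fl/fl livers by Acta2 was their order by Mgp. Of adipocyte genes (7 of 10 measured) 3 were called higher, Adipoq, Plin1 and Slc36a2 (log2 fold changes 2.67, 2.42 and 3.15), and the sum ranged from 192.6 to 340.2 CPM in S100a8fl/flCx3cr1Cre and from 188.2 to 249.1 CPM in S100a8fl/fl livers. Adipoq, which defines adipocytes, was at 6.45 to 7.88 CPM in S100a8fl/flCx3cr1Cre and 0.517 to 1.73 CPM in S100a8fl/fl livers. Lep, Retn and Adig were not analysed here.

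Vascular endothelial genes summed to 118.2 to 132.1 CPM in S100a8fl/flCx3cr1Cre livers on HFD and 82.69 to 118.3 CPM in S100a8fl/fl livers. Of the 8, 2 were called higher, Ly6c1 and Pecam1 (2.31 and 0.71), where 0.883% of all genes were called. Hepatic stellate cell genes (15 of 15 measured) summed to 336.6 to 364.4 CPM in S100a8fl/flCx3cr1Cre and 335.6 to 462.2 CPM in S100a8fl/fl livers. Of these genes edgeR, DESeq2 and limma-voom each called 0 (median -0.17). By edgeR 1 had an unadjusted p under 0.05 (1069 of all 13817 genes). Mesothelial genes (5 of 8 measured) summed to 11.74 to 26.0 CPM in S100a8fl/flCx3cr1Cre and 10.32 to 20.64 CPM in S100a8fl/fl livers, and all 3 tools called 0, with 1 at an unadjusted p under 0.05. Sinusoidal endothelial, cholangiocyte, hepatocyte and Kupffer cell lists had 0 genes called by all 3 tools and 0 at an unadjusted p under 0.05, and the 1 Schwann cell gene measured had an unadjusted p under 0.05 with 0 calls. No measured marker of these lists was at 0 in every liver. The part of smooth muscle, fat and vessels in the higher Pi16, Mgp and related genes was not tested.

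In the Bcl2AdTG experiment on HFD, smooth muscle genes (7 of 12 measured) summed to 102.3 to 150.6 CPM in Bcl2AdTG and 112.3 to 133.3 CPM in WT livers. Stellate genes summed to 323.9 to 444.9 CPM in Bcl2AdTG and 400.4 to 518.3 CPM in WT livers, with 1 of 15 called, a share like the 6.71% of all genes. It was Pdgfrb (lower, -0.69), which lost its call without WT 4 or 5 (edgeR adjusted p = 0.0553 and 0.0561) and with the replicate block (0.121). Of the 4 measured adipocyte genes, Cidec (-2.92) and Plin4 (-1.63) were called lower. Plin4 lost its call on leaving out any of 8 of the 10 HFD livers (all but Bcl2AdTG 2 and 6, edgeR adjusted p from 0.0505 to 0.0998) and with the replicate block (0.0765). Cidec is also made by fat-laden hepatocytes. Vascular endothelial genes summed to 84.15 to 137.2 CPM in Bcl2AdTG and 126.3 to 158.6 CPM in WT livers, with 1 of 7, Vwf, called lower (-0.79), a call lost with the replicate block (edgeR adjusted p = 0.0637). Their part in the lower Dpt was not tested.

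**Figure D5:**
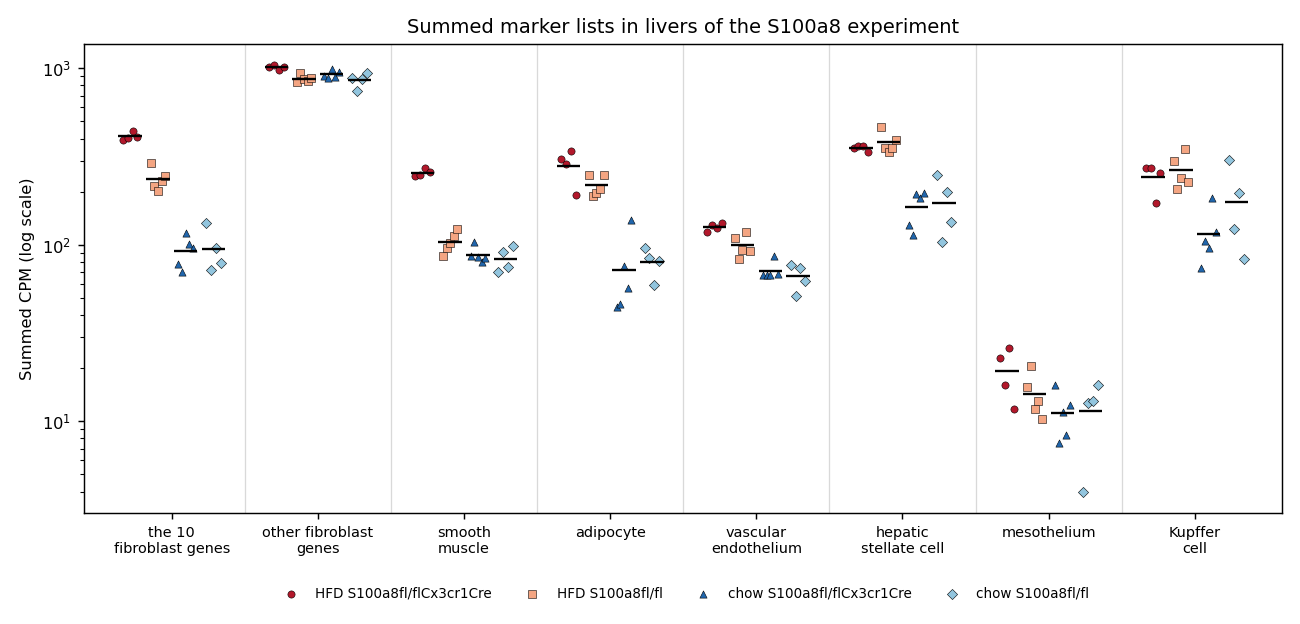
Summed CPM of the fibroblast genes and of marker lists of other cells in every liver of the S100a8 experiment (vertical axis, log scale), by list and group (horizontal axis), with a bar at each group mean. On HFD the fibroblast sum was 393.4 to 438.9 CPM in S100a8fl/flCx3cr1Cre livers and 202.2 to 289.6 CPM in S100a8fl/fl livers, and the smooth muscle sum separated the same livers.

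Outside the set itself, 13211 genes were compared with the mean of the set over all livers of each experiment. That mean was over 10 genes in the S100a8 experiment and 7 in the Bcl2AdTG experiment. Most alike were Serpinh1 (Spearman's rho 0.89 over 18 livers and 0.85 over 16), Vim (0.85 and 0.92), Fbln7 (0.85 and 0.84) and Fbln5 (0.85 and 0.84). Next came Sparcl1 (0.83 and 0.83), Csrp1 (0.92 and 0.83), Emp1 (0.87 and 0.81) and Itgbl1 (0.91 and 0.80). Serpinh1 is the collagen chaperone HSP47, Vim the intermediate filament of mesenchymal cells, and Fbln5 and Fbln7 are fibulins, as is Fbln2. The rho describes libraries that share diet and genotype as well as cells.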

How the data were processed

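Male mouse livers were sequenced as polyadenylated RNA, 1 library per mouse, 34 in all. Per the submitters' processing notes the authors used FastQC, Trimmomatic, HISAT2 on GRCm38, SAMtools and featureCounts (versions not given in the sources used here) and deposited raw counts per gene, 1 table per experiment. The tables list only genes with a mean count of at least 7.12 (Bcl2AdTG) or 8.67 (S100a8). The deposited tables also hold the authors' mean signal per gene, log2 fold changes, a standard error, statistic and rank score, and p-values for their HFD comparisons, none of which was used.

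Entries repeated for 1 gene identifier held identical counts and were kept once, leaving 14436 (Bcl2AdTG) and 13817 (S100a8) genes, which were fitted with edgeR 4.0.16 (R 4.3.3, TMM scaling, quasi-likelihood test, 4 groups together) in 5 comparisons per experiment. Benjamini-Hochberg adjusted p under 0.05 over all genes was a call. The SE of a log2 fold change was derived from the test, as its absolute value divided by the square root of the edgeR F statistic. The test was checked on simulated counts. DESeq2 1.42.0, limma-voom with quality weights (limma 3.58.1), RLE size factors, robust fits, other filters, fewer groups, a replicate block and leaving out each liver were the alternatives. Shares of all genes are those of edgeR, and none is given for DESeq2 or limma-voom. The filter removed 0 genes, so leaving it out changed nothing. CPM had no prior count, and log2 CPM in the plots a prior count of 2. Positions are from GENCODE M21 on GRCm38, and promoters from RefSeq.

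Same-numbered HFD WT and chow WT livers had deviations with correlations of 0.134, 0.136 and 0.15. Over the other sets of groups such correlations ran from -0.357 to 0.193. The labels do not pair the mice, so the main fits were not paired, and the replicate block was only an alternative.

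The 10 genes and all gene lists were chosen with earlier results of these data known. All 10 are named, with up to 4 genes of each related list by smallest p for Bcl2AdTG against WT on HFD, and the 8 genes most like the set. Other genes are named after their values were seen. The 10 genes carry no p in S100a8 comparisons that use the HFD livers.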

Additional observations from a re-analysis of the deposited data

Results flagged for a closer look

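In 6 of 54 gene and group combinations of 4 or 5 livers, 1 liver lay far from the others of its group by Dixon's criterion, which chance alone does in about 1 of 20, or 2.7 of 54. All 6 were the highest of their group and all were in the S100a8 experiment. That experiment gave most of the combinations, since the chow groups of the Bcl2AdTG experiment, of 3 livers each, were not tested. Combinations from the same livers are not independent, so the number expected by chance is rough. HFD S100a8fl/flCx3cr1Cre liver 5 had 24.67 CPM of Dpt and 15.92 CPM of Pi16. HFD S100a8fl/flCx3cr1Cre liver 3 had 87.55 CPM of Gsn. Chow S100a8fl/flCx3cr1Cre liver 2 had 2.279 CPM of Pi16 and liver 3 had 4.4 CPM of Lum. HFD S100a8fl/fl liver 5 had 3.05 CPM of Ogn, which left it below every S100a8fl/flCx3cr1Cre liver on HFD.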

How the results depend on the processing

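Of 180 counts of called genes recomputed, 162 stayed within 1.5 times the value given. Between Bcl2AdTG and WT livers on HFD the 1 called gene became 2 by DESeq2 and 3 by limma-voom, and leaving out single livers gave 0 to 2, with 2 without HFD WT 2 and 0 without HFD Bcl2AdTG 1, 2 or 5 or HFD WT 3, 4 or 5. For HFD against chow in Bcl2AdTG livers limma-voom called 2, Dcn (0.29, adjusted p = 0.0492) and Lum (0.49, adjusted p = 0.0417). For HFD against chow in WT livers the 0 became 2 by limma-voom, and leaving out livers gave 0 to 2, with 2 without chow WT 2. For the diet by genotype term of the S100a8 experiment the 0 by edgeR became 3 by DESeq2. Leaving out livers gave 0 to 1, with 1 without HFD S100a8fl/fl 2, chow S100a8fl/flCx3cr1Cre 2 or 3, or chow S100a8fl/fl 4 or 5. These counts, like others that use the HFD S100a8 livers, are a description. Leaving out livers left 8 genes called for S100a8fl/flCx3cr1Cre against S100a8fl/fl on HFD and 10 by diet in S100a8fl/flCx3cr1Cre livers, and gave 4 to 5 by diet in S100a8fl/fl livers.

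With the replicate block, 7 of the 8 genes were called for S100a8fl/flCx3cr1Cre against S100a8fl/fl on HFD, and the other 9 counts of the set were the same. Ogn for Bcl2AdTG against WT on HFD reversed to 0.10 with the block, and ran from -0.26 to 0.019 on leaving out livers. Sfrp1 there reversed to -0.48 by limma-voom and -0.10 with the block, and ran from -0.12 to 0.39 on leaving out livers. Col15a1 lost its call with the block (-1.26, adjusted p = 0.0619), Dcn gained one by limma-voom (adjusted p = 0.0497) and Fmod without HFD WT 2 (-1.15, adjusted p = 0.0262). The causes were not tested. The log2 fold change of Sfrp2 for HFD against chow in S100a8fl/flCx3cr1Cre livers was 4.96 by limma-voom, against 3.53 by edgeR.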
